A study of Mus musculus with 6 samples.

Results

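The genes described here are 9 components of TGF-beta signalling: the receptors Tgfbr1 and Tgfbr2, the signal carriers Smad2, Smad3 and Smad4, the inhibitory Smad7, and the repressors Ski, Skil and Tgif1. Every probe set that the array platform's annotation gives to 1 of these genes was taken, which made 21 of the 45101 probe sets on the array and 9 of the 18193 genes with a symbol. They were measured in mouse regulatory T cells (Tregs), the CD4+ T cells that restrain immune responses, in a series on the adenosine 2A receptor (A2AR). Adenosine is released by stressed and inflamed tissue, and this receptor passes the signal on through cyclic AMP. There were 6 arrays in 3 groups of 2. All cells came from spleen and lymph nodes of C57Bl/6 mice aged 8 to 11 weeks that carried the FoxP3GFP reporter, and were sorted by flow cytometry as GFP-positive CD4+CD25+FoxP3+ cells. The WT vehicle group was A2AR+/+FoxP3GFP and the KO vehicle group A2AR-/-FoxP3GFP, both cultured for 18 h with DMSO. The WT ATL1222 group was A2AR+/+FoxP3GFP, cultured for 18 h with 10 nM ATL1222, which the labels describe as selective for that receptor. No KO cells with ATL1222 were analysed here. The labels name no added TGF-beta and list fetal bovine serum in the medium of all groups. They do not say whether the receptor was deleted in Tregs alone or in the whole animal. Replicates are labelled biological, but whether each array had its own animals is not said, and p-values cover only the spread from array to array.

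TGF-beta binds Tgfbr2, which recruits and phosphorylates Tgfbr1, and Tgfbr1 in turn phosphorylates Smad2 and Smad3. These join Smad4 and enter the nucleus to switch genes on or off, while Smad7 blocks the receptors and Ski, Skil (also called SnoN) and Tgif1 recruit corepressors to the Smad complexes. In T cells the pathway is known for inducing Foxp3 and for holding back activation, and Smad7 and Skil are textbook targets that feed back on it.

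The promoters of 5 of the 9 genes (Tgfbr1, Tgfbr2, Smad3, Ski and Tgif1) were in the RefSeq promoter table used here (build GRCm38.p6). It held 10 windows of 250 bases before a transcript start for them, 5 of these for Tgif1. Smad2, Smad4, Smad7 and Skil had no entry. Both strands were searched for CAGAC, which holds the Smad binding core, GTCTAGAC, the palindromic Smad box, GGCGCC, a GC-rich Smad site, TGTCA, the core bound by Tgif1, and TGACG and TGACGTCA, the short and full cyclic AMP response element, of which the first lies inside the second. The 2 windows shown are for Tgif1, which had the largest log2 difference of the 9 genes between ATL1222 and KO cells, and for Tgfbr2, the ligand-binding receptor. Capitals mark CAGAC in both and, in Tgif1, the reverse complement of TGTCA. Each is written 5′ to 3′ along the gene and ends at the base before the start.
Tgif1 (chr17:70853533-70853782, minus strand): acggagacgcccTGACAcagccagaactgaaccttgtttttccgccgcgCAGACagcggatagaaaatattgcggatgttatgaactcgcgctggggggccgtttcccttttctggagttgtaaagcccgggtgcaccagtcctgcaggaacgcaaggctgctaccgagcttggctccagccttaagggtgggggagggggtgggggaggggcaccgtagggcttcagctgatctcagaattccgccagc
Tgfbr2 (chr9:116175364-116175613, minus strand): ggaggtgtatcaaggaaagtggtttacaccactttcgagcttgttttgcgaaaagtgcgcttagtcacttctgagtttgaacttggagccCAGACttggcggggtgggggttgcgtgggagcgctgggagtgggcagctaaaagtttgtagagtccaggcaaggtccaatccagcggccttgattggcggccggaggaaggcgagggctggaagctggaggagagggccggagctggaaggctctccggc
The Tgif1 window shown is that of the start farthest upstream of its 5. Its CAGAC lies 201 to 197 bases before that start, and that of Tgfbr2 160 to 156 bases before its own. Other Tgif1 windows held CAGAC up to 2 times or not at all. CAGAC was found in 5 of the 10 windows, and in 42.2% of all 32851 promoter windows of the table. TGTCA was found in 4 of 10 against 40% of all, and GGCGCC in 2 of 10 against 9.59%. GTCTAGAC, TGACG and TGACGTCA were found in 0 of the 10 windows, against 0.167%, 17.8% and 1.55% of all. A match is a description of letters and not a binding site, and no match says only that these letters are not in these windows.

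The values are array signals on a linear scale, which the authors had scaled to the same trimmed mean on every array. Tests were made with limma on log2(signal + 16), with 1 probe set for each gene (the brightest on average) and the dimmest 40% of genes left out. All 9 genes were among the 10916 genes tested. Of their 21 probe sets, 15 passed the same filter among all probe sets, and the 6 that did not were further probe sets of Tgfbr1, Tgfbr2 and Smad3 with signals from 5.12 to 101.1. Fold changes and intervals are on the log2(signal + 16) scale, and adjusted p-values follow Benjamini and Hochberg over all genes tested. With 2 arrays a group an exact test cannot give a two-sided p below 0.333. The Treg markers Ikzf2 (Helios), Ctla4 and Nrp1 had signals from 3432 to 8431 on every array, Il2ra 416 to 613 and Cd4 136 to 488, while the Foxp3 probe set stayed at 7.18 to 53.5 and was not tested. Of the 9 tested genes of the 10 on this marker list, Ctla4 and Tnfrsf18 (GITR) passed as higher in ATL1222 than in KO cells (adjusted p = 0.0370 and 0.00326, limma). That is 22.2%, against 0.999% of all genes, and 0 passed as lower. With the replicate number as a block 2 passed as higher and 1 as lower (33.3% against 2.42% of all genes). Of the 9, 5 had a difference above 0. Nrp1 read lower with ATL1222, at 6109 and 5319, than in KO vehicle (8299 and 6821) or WT vehicle (7836 and 6667). Of 19 markers of B cells, myeloid cells, platelets and other cells on the array, 10 were tested. The summed signal of all 19, tested or not, was 13761 to 15868 in WT vehicle, 13977 to 14417 in KO vehicle and 11633 to 12007 in WT ATL1222. Ighm, the immunoglobulin heavy chain mu gene, and Ctss, a lysosomal protease of antigen-presenting cells, made up most of it, and Ighm was lower with ATL1222 than with vehicle in WT cells (adjusted p = 0.0445, limma). Without Ighm and Ctss the sums were 1872 to 1981, 1922 to 2186 and 2066 to 2136. Of the B cell genes, Cd79a did not exceed 77.7 on any array and was not tested, while Cd79b read 187 to 259, Ms4a1 150.0 to 243 and Cd74 129 to 222. Their log2 differences with ATL1222 from WT vehicle were 0.20 ± 0.25 (SE), 0.29 ± 0.29 and 0.03 ± 0.30, where Ighm was at -0.71 ± 0.13. The part of these cells in the values below was not tested, and in bulk RNA fewer cells of a type cannot be told apart from less RNA per cell.

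The first question was whether Tregs without the receptor, or with it stimulated, carried other amounts of the receptor and Smad transcripts. No gene of the 9 passed an adjusted p of 0.05 in any of the 3 comparisons, and the fitted differences were at most 0.40 on the log2 scale. Over all genes tested 0.0275% passed for KO against WT vehicle, 0.211% for ATL1222 against vehicle in WT cells and 0.999% for ATL1222 against KO. With shares this low, 0 of 9 is close to what the background gives.

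Tgfbr1, the type I receptor kinase, gave signals of 1380.1 and 1156 in WT vehicle, 1327 and 1293 in KO vehicle and 1451 and 1205 in WT ATL1222. The groups overlapped in every comparison, and the differences lay between 0.01 and 0.07 (SE 0.16). Tgfbr2, which binds the ligand, gave 3604 and 3038 in WT vehicle, 3893 and 3178 in KO vehicle and 4166 and 3135 in WT ATL1222. Here replicate 1 was the high array in every group, and this difference within groups was wider than any difference between group means. Tgfbr2 means were 3321 ± 400.0 (SD, n = 2), 3535 ± 506 and 3651 ± 729.5. The ATL1222 difference from WT vehicle was 0.13 with a 95% interval from -0.23 to 0.48.

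**Figure D1:**
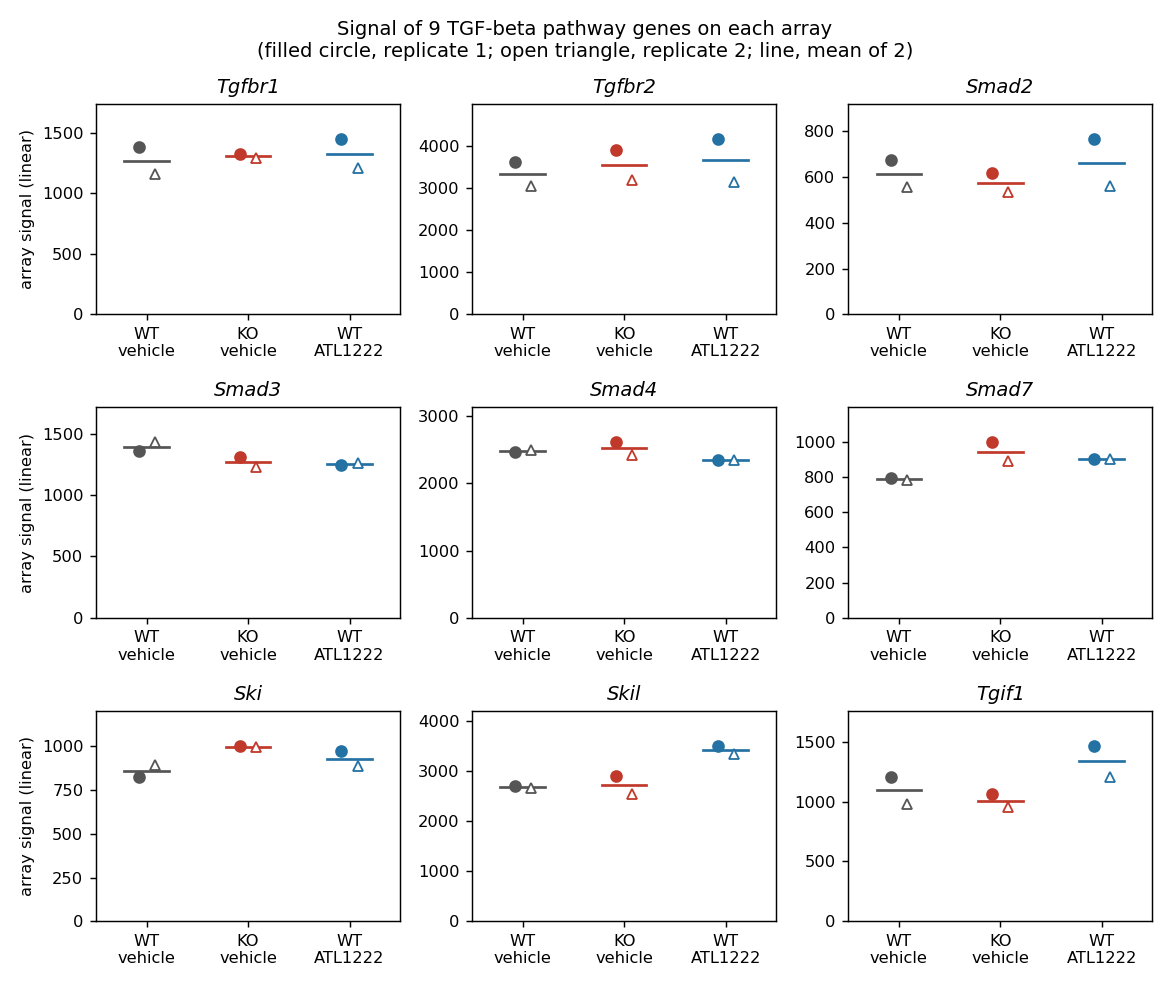
Array signal (linear scale, each axis from 0) of the 9 genes by group, with replicate 1 as a filled circle, replicate 2 as an open triangle and the mean of the 2 arrays as a line. Skil and Tgif1 are the genes whose ATL1222 arrays both lie above the 4 vehicle arrays, Tgif1 by only 0.59 signal units over WT vehicle replicate 1.

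Smad2, phosphorylated by the receptor, gave 676 and 555 in WT vehicle, 618 and 533 in KO vehicle and 768 and 559.5 in WT ATL1222. Its groups overlapped throughout, with replicate 1 again the high array of each group. Smad3, the other receptor-activated Smad and the one that binds DNA directly, gave 1360.0 and 1430.5 in WT vehicle, 1307 and 1231 in KO vehicle and 1242 and 1266 in WT ATL1222. Both WT vehicle arrays were above the other 4, by at least 52.5 signal units. The Smad3 differences from WT vehicle were -0.13 ± 0.15 (SE) for KO and -0.15 ± 0.15 for ATL1222, each about the size of its error. Smad4, the shared partner of the receptor-activated Smads, gave 2465 and 2491 in WT vehicle, 2608 and 2427 in KO vehicle and 2339 and 2347 in WT ATL1222. The ATL1222 arrays were the lowest of the 6, by 79.95 signal units, and both differences were small, -0.08 ± 0.13 from WT vehicle and -0.10 from KO. Lower values on both arrays were common: for 16.3% of all genes both ATL1222 arrays lay below both WT vehicle arrays.

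Smad7, the inhibitory Smad that competes for the receptor and draws ubiquitin ligases to it, gave 796 and 782 in WT vehicle, 997 and 889.9 in KO vehicle and 901 and 902 in WT ATL1222. The 2 WT vehicle arrays were the lowest of the 6. The KO difference from WT vehicle was 0.25 ± 0.16 (SE), with an unadjusted p of 0.134 and an adjusted p of 1.00 (limma), and that of ATL1222 was 0.19 ± 0.16. Receptor loss and receptor stimulation thus stood on the same side of WT vehicle, and ATL1222 and KO differed from each other by -0.06. Neither difference passed the test, and both are taken from the same 2 WT vehicle arrays.

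Ski, the corepressor that holds Smad complexes inactive on DNA, gave 826 and 893 in WT vehicle, 1001 and 994 in KO vehicle and 970.1 and 886 in WT ATL1222. Both KO arrays lay above the other 4, and the KO difference was 0.21 ± 0.16 (unadjusted p = 0.197, limma). Of the 9 genes 2, Smad7 and Ski, had both KO arrays above both WT vehicle arrays, against 15.9% of all genes.

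Skil, the close relative of Ski, gave 2707 and 2662 in WT vehicle, 2886 and 2544 in KO vehicle and 3495 and 3336 in WT ATL1222. The 4 vehicle arrays overlapped, and the lower ATL1222 array was 450.42 signal units above the highest of them. Means were 2684 ± 31.2 (SD, n = 2), 2715 ± 242 and 3415 ± 112. ATL1222 cells were 1.27-fold above WT vehicle, a log2 difference of 0.35 ± 0.13 (SE) with a 95% interval from 0.06 to 0.63. The unadjusted p was 0.0217 and the adjusted p 0.799 (limma), so Skil did not pass. Against KO cells the difference was 0.33 ± 0.13, 1.26-fold, with an adjusted p of 0.446. KO and WT vehicle cells differed by 0.01, with an interval from -0.27 to 0.30.

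Tgif1, a homeodomain repressor that recruits histone deacetylases to Smad2 and Smad3, gave 1205 and 983 in WT vehicle, 1061 and 953 in KO vehicle and 1464 and 1206 in WT ATL1222. Replicate 1 was higher in each group, so the low ATL1222 array and the high WT vehicle array nearly coincided. Within each replicate number the ATL1222 array was higher than WT vehicle by 0.28 and 0.29, and higher than KO by 0.46 and 0.33. The fitted difference was 0.28 ± 0.17 (SE) against WT vehicle (1.22-fold, adjusted p = 0.998, limma) and 0.40 ± 0.17 against KO (1.32-fold, adjusted p = 0.510). The unadjusted p-values were 0.114 and 0.0338.

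**Figure D2:**
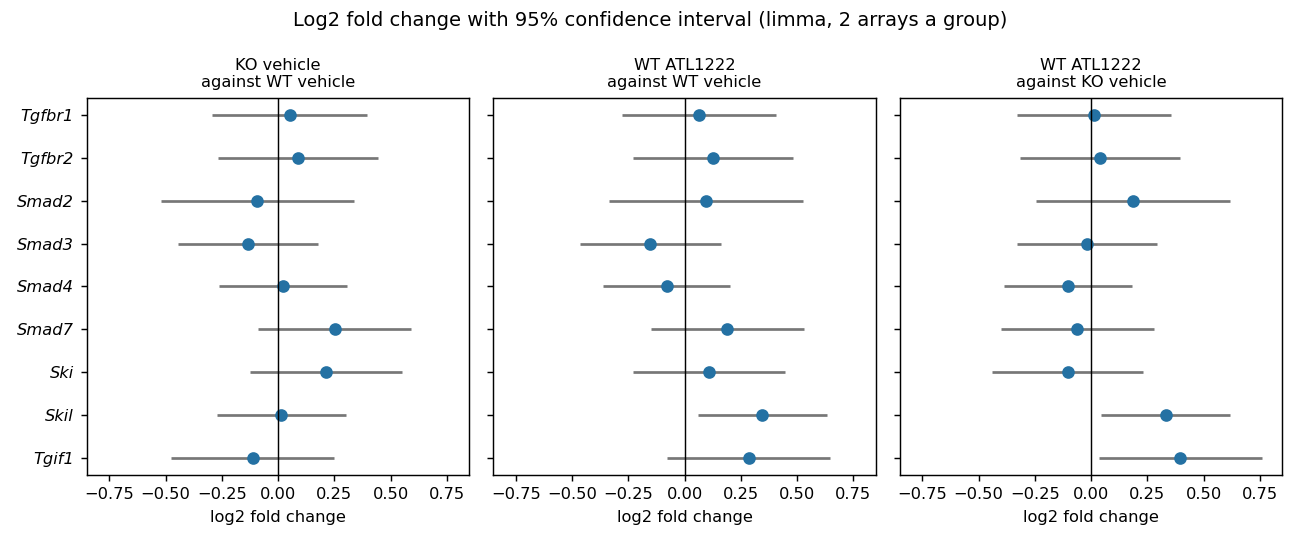
Log2 fold change of each of the 9 genes in the 3 comparisons (points) with the 95% confidence interval from limma (lines), 2 arrays a group. The intervals of Skil in both ATL1222 comparisons and of Tgif1 in ATL1222 against KO lie above 0 before adjustment for the number of genes, and those of the other genes include 0.

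Across the 9 genes, unadjusted p-values under 0.05 were found for 0 genes in KO against WT vehicle, 1 (Skil) in ATL1222 against WT vehicle and 2 (Skil and Tgif1) in ATL1222 against KO. The shares over all genes tested were 3.89%, 5.03% and 8.48%. In KO against WT vehicle the groups did not overlap for Smad7 and Ski (higher) and for Smad3 (lower, as for 13.7% of all genes). In ATL1222 against WT vehicle Smad7, Skil and Tgif1 were higher on both arrays, as were 14.5% of all genes, and Smad3 and Smad4 lower. In ATL1222 against KO, Skil and Tgif1 were higher (17.4% of all genes) and Smad4 and Ski lower (20.9%). Both ATL1222 arrays lay above all 4 vehicle arrays for Skil and Tgif1 and below them for Smad4, which 7.48% and 8.48% of all genes did. Both ATL1222 comparisons use the same 2 ATL1222 arrays, so their values for Skil and Tgif1 are not separate evidence. The median absolute log2 difference of the 9 genes was 0.0917, 0.127 and 0.102 in the 3 comparisons, and that of all genes tested 0.154, 0.157 and 0.181. The intervals are each for the brightest probe set of a gene and are not adjusted for the number of genes. For KO against WT vehicle they reached from 1.44-fold lower to 1.51-fold higher over the 9 genes. For ATL1222 against WT vehicle they reached from 1.38-fold lower to 1.56-fold higher, and against KO from 1.36-fold lower to 1.69-fold higher. These limits do not hold for every probe set. The dim further probe sets of Smad2 and Skil had wider intervals, which reached 3.05-fold and 2.38-fold higher for KO against WT vehicle. The second probe set of Smad7, with signals from 293 to 506, also went past these limits. Its interval reached 1.71-fold higher for KO against WT vehicle. For ATL1222 it reached down to 0.556 times WT vehicle and 0.483 times KO.

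Further probe sets of the same genes are not measures of the same stretch of transcript, and some parted from the brighter one. Skil's second probe set was dim (84.5 and 55.8 in WT vehicle, 91.1 and 89.8 in KO vehicle, 72.2 and 87.8 in WT ATL1222), and its ATL1222 difference from WT vehicle was 0.17 ± 0.42 (SE). Its ATL1222 difference from KO was -0.15 ± 0.42, opposite in sign to the 0.33 of the bright one. Within that error this dim probe set neither repeats nor opposes the differences of the bright one. Smad7's second probe set gave 455 and 296 in WT vehicle, 359 and 506 in KO vehicle and 293 and 308 in WT ATL1222. Its ATL1222 difference from WT vehicle was -0.28 ± 0.26, opposite in sign to the bright probe set. Ski's second probe set likewise did not share the KO difference, at -0.06, with signals of 904 and 752 in WT vehicle and 741 and 844 in KO vehicle. One of Smad4's 3 probe sets read 1757 and 2190.2 with ATL1222 and 1747 and 1682 in WT vehicle, a difference of 0.19 ± 0.15, where the brightest read lower with ATL1222. Smad2's dim probe set had the widest difference between KO and WT vehicle among the 15 tested, 0.71 ± 0.41, from signals of 92.4 and 159 against 63.7 and 72.8 (unadjusted p = 0.111, limma). Of these 15 probe sets 0 passed an adjusted p of 0.05 in any comparison, against 0, 0.0333% and 0.326% of all 27022 probe sets tested for KO against WT vehicle, ATL1222 against WT vehicle and ATL1222 against KO. Tgif1 had 1 probe set and no such check.

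The replicate numbers carried a difference of their own. Replicate 1 was above replicate 2 in all 3 groups for 5 of the 9 genes, Tgfbr1, Tgfbr2, Smad2, Skil and Tgif1, and below it in all 3 for 0. Among all genes tested 24.0% were higher and 15.2% lower in replicate 1 in all 3 groups. The log2 difference between replicates reached 0.45 for Smad2 and 0.41 for Tgfbr2, both in WT ATL1222, both beyond the widest fitted difference between groups, 0.40. The poly-A control RNAs, which are added to the sample before labelling, differed in the same direction, with ratios of replicate 1 to replicate 2 from 1.15 to 2.09. With the replicate number as a block, the adjusted p of Skil was 0.219 against WT vehicle and 0.118 against KO, and that of Tgif1 0.523 and 0.120, so 0 of the 9 genes passed there too. In both ATL1222 comparisons the block lowered the SE of Skil from 0.13 to 0.098 and that of Tgif1 from 0.17 to 0.12. The block passed 0.0824%, 0.724% and 2.42% of all genes.

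**Figure D3:**
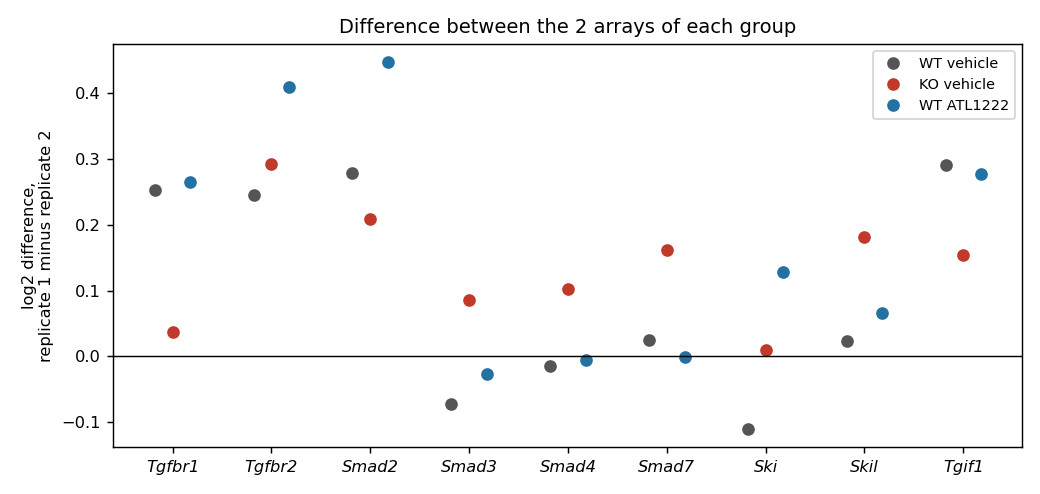
Log2 signal difference between replicate 1 and replicate 2 within each group, for the 9 genes. All 3 points lie above 0 for Tgfbr1, Tgfbr2, Smad2, Skil and Tgif1, with values from 0.02 to 0.45, and on both sides of 0 for Smad3, Smad4, Smad7 and Ski.

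The rest of the pathway was taken as 7 lists of 99 genes in all, of which 95 were on the array and 76 were tested: ligands and their activation, other receptors, other Smads and adaptors, coactivators and corepressors, turnover of receptors and Smads, signalling without Smads, and target genes. In KO against WT vehicle 0 of the 76 passed (limma, adjusted p), against 0.0275% of all genes, and 5 had an unadjusted p under 0.05, against 3.89% of all genes. The 3 with the smallest p were target genes: Gadd45b, a stress gene of p38 signalling, at -0.78 ± 0.16 (SE, adjusted p = 0.547), Tsc22d1 at 0.59 ± 0.16 and Bhlhe40 at -0.65 ± 0.20. Gadd45b read 926 and 967 in WT vehicle, 579 and 511 in KO vehicle and 958 and 929 in WT ATL1222, so the KO arrays stood apart from both others. Tsc22d1 was the mirror image, with 1242 and 1246 in KO vehicle and at most 875 elsewhere. Its further probe sets parted, at 0.56, 0.62, 0.09, -0.19 and -0.68, and those of Gadd45b gave -0.39 and -0.45.

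With ATL1222 in WT cells 1 of the 76 genes passed, which is 1.32% against 0.211% of all genes. This was Id2, an inhibitor of basic helix-loop-helix factors, with signals of 772 and 412 in WT vehicle, 400.0 and 327 in KO vehicle and 1747 and 1356 in WT ATL1222. Its log2 difference from WT vehicle was 1.42 ± 0.25 (2.68-fold, adjusted p = 0.0322, limma). Leaving out WT vehicle replicate 2, ATL1222 replicate 1 or ATL1222 replicate 2 ended this call, with adjusted p-values of 0.227, 0.345 and 0.0514. With the replicate block 4 more passed: Zeb1, Junb and Bhlhe40 higher and Id3 lower. Without the block their differences were 0.85 ± 0.16 for Zeb1, 1.01 ± 0.24 for Junb, 0.73 ± 0.20 for Bhlhe40 and -0.80 ± 0.16 for Id3, with adjusted p-values of 0.0545, 0.179, 0.336 and 0.0667.

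In ATL1222 against KO cells 7 of the 76 genes passed, 6 higher and 1 lower, which is 9.21% against 0.999% of all genes. The lists were drawn up with earlier results of these data known, so this share is a description. Of the 7, 5 were among the 15 tested target genes. That list gives no direction for a target, and the part of TGF-beta in these changes was not tested. Id2 was 4.12-fold higher (log2 2.04 ± 0.25, adjusted p = 6.03e-04, limma). Bhlhe40, a repressor of the helix-loop-helix family, read 1033 and 820.5 with ATL1222, 384 and 308 in KO vehicle and 611 and 492 in WT vehicle, and was 2.60-fold above KO. Junb, a subunit of the AP-1 factor, was 2.46-fold and Gadd45b 1.71-fold higher. Id3, a relative of Id2, was the gene that fell: it read 791 and 994 with ATL1222, 1808 and 1667 in KO vehicle and 1629.9 and 1486 in WT vehicle, and was 1.94-fold below KO. Zeb1, a zinc finger repressor that binds Smads, read 2239 and 2454 with ATL1222, 1154 and 937 in KO vehicle and 1174 and 1429 in WT vehicle, and was 2.23-fold above KO. Its other probe sets differed by 0.17 and 0.40, and with the probe sets of a gene averaged the Zeb1 difference was 0.38 (adjusted p = 0.814). Itgav, the integrin chain that frees TGF-beta from its latent form, was 1.92-fold higher (log2 0.94), but its other probe sets differed by -0.02, 0.27 and 0.68 and the average of its probe sets by 0.19 (adjusted p = 0.952). Averaging probe sets kept 3 of the 7 calls and also ended those of Gadd45b (adjusted p = 0.483) and Junb (0.0893). The log2 difference of Junb was 1.30 with and without averaging, with an SE of 0.25 and 0.24. With the replicate block Tsc22d1 (lower) and Map2k3 (higher), a kinase that activates p38 and was named after its values were seen, passed as well. Leaving out ATL1222 replicate 1 kept 2 of the 7 calls (Id2 and Zeb1), leaving out KO vehicle replicate 1 or 2 kept 4 each, and leaving out ATL1222 replicate 2 kept 6.

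Apart from the genes above, 6 partners from a fixed list were looked at whatever their values. Lrrc32, also on that list, was not among the genes measured. Tgfb1, the main ligand in immune cells, read 179 and 245 in WT vehicle, 206 and 283 in KO vehicle and 259 and 279 in WT ATL1222, a difference of 0.34 ± 0.26 with ATL1222 in WT cells. Furin, which cleaves the TGF-beta precursor, was at -0.31 in KO and -0.28 with ATL1222 against WT vehicle. Of the ubiquitin ligases, Smurf2, which acts with Smad7, was at 0.24 in KO and with ATL1222 against WT vehicle, and Rnf111 (Arkadia), which degrades Ski and Skil, at -0.04 and 0.05. Pmepa1, a feedback inhibitor and target, was at 0.10 and 0.18, and Itgae (CD103), a target in T cells, at 0.10 and -0.17. A second probe set gave 0.42 and 0.65 for Pmepa1, -0.43 and -0.46 for Itgae and 0.09 and -0.09 for Tgfb1. The 2 further probe sets of Smurf2 gave -0.25 and 0.02 in KO and -0.13 and -0.14 with ATL1222. These further probe sets did not pass either. These 6 genes did not pass in any of the 3 comparisons. By list, the median log2 difference in ATL1222 against WT vehicle ran from 0.01 for coactivators and corepressors to 0.23 for ligands and their activation. The median of all 76 was 0.06, and that of all genes tested was -0.01.

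**Figure D4:**
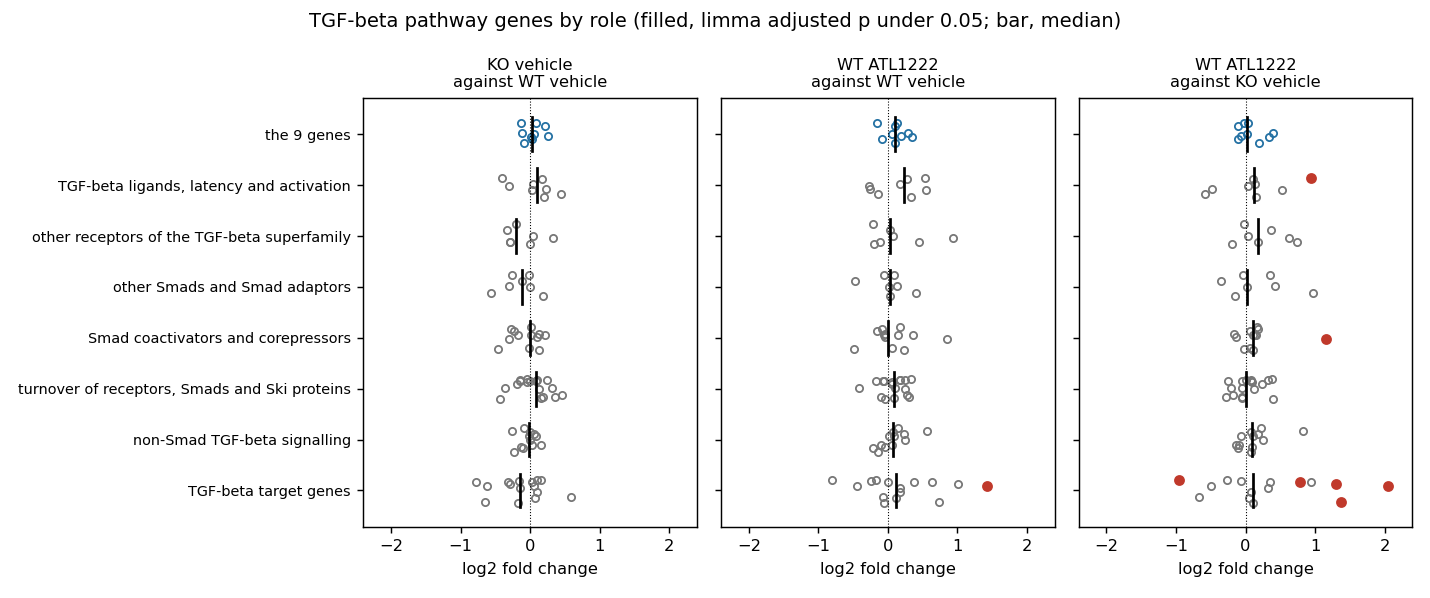
Log2 fold change of the 9 genes and of each tested gene of the 7 pathway lists in the 3 comparisons, filled where the adjusted p was under 0.05 (limma) and with a bar at the list's median. The 9 genes lie within -0.15 and 0.40 in all panels, and the filled points are 1 gene in ATL1222 against WT vehicle and 7 in ATL1222 against KO.

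The genes whose signals over the 6 arrays were most like those of Skil and Tgif1, the 2 members that varied most between groups for their error, were found by Pearson's r of log2(signal + 16) among the 10916 genes tested. For Skil these were Amz2 (r = 0.993), Rab19 (0.991) and Dnajb1 (0.986), a heat shock cochaperone. Amz2 read 230.0 and 208 in WT vehicle, 259 and 199 in KO vehicle and 431 and 415 in WT ATL1222, with replicate 1 above replicate 2 in each group, as for Skil. For Tgif1 they were Dok1 (r = 0.999), an adaptor that dampens T cell receptor signalling, Zfp758 (0.995) and Rora (0.994), a nuclear receptor. Rora read 1423 and 1017 in WT vehicle, 1142 and 938 in KO vehicle and 1764 and 1368 in WT ATL1222, so like Tgif1 it was higher in replicate 1 of each group. These r are the highest of 10916 over 6 arrays that share their scaling and carry no test.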

How the data were processed

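Mouse Treg RNA was measured on 6 Affymetrix 3' arrays. The deposited values are intensities on a linear scale, processed by the authors with GCOS per the submitters' processing notes. Which GCOS version, summarization method and genome build were used is not given in the sources used here. Each array had the same mean signal without its highest and lowest 2% of probe sets, and this scaling was kept. After leaving out 64 control probe sets, genes were named from the platform annotation (34945 probe sets with 1 symbol, 932 with several, 9160 not listed here), with 34741 symbols updated through Entrez identifiers. The receptor's own transcript is not reported here, so genotype labels carry no expression check.

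All 6 arrays entered 1 limma fit (limma 3.58.1 in R 4.3.3, variance trend) of log2(signal + 16), tested on simulated data. The limits for leaving out dim features were mean log2 values of 6.45 (genes) and 6.13 (probe sets). The threshold was an adjusted p of 0.05. The precision is limited by 2 arrays a group; the median SE over genes was 0.231. Replicate numbers come from the labels' titles. Deviations of replicate 1 from the group means correlated over genes between every pair of groups (r = 0.230, 0.230 and 0.147). The main fit had no term for the replicate number, so its errors, intervals and p-values leave this pairing out. The blocked fit was run as an alternative.

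The 9 genes, the pathway lists and the markers were chosen with earlier results of these data known. Named were all 9 genes, every listed pathway gene past the threshold (at most 8 a comparison; where fewer than 3 passed, the 3 with the smallest p), 6 fixed partners, and the 3 genes most like each of the 2 members with the largest F. Alternatives changed the normalization, pseudocount, filter, probe set rule, variance trend, arrays fitted and block, and left out each array in turn.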

Additional observations from a re-analysis of the deposited data

How the results depend on the processing

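The 9 genes and the 15 probe sets had 0 calls under every alternative run, and the lowest adjusted p of any of them was 0.118. Skil stayed between 0.26 and 0.38 in ATL1222 against WT vehicle and between 0.09 and 0.42 against KO, and Tgif1 between 0.14 and 0.43 and between 0.26 and 0.53. The precision is limited by 2 arrays a group.

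The replicate block changed no call of the 9 genes, and raised the genes called among all tested to 9 for KO against WT vehicle (from 3), 79 for ATL1222 against WT vehicle (from 23) and 264 for ATL1222 against KO (from 109). In the same order, fitting without the variance trend gave 0, 0 and 5, and averaging probe sets 0, 3 and 44. With no filter on dim genes 14 and 70 passed in the ATL1222 comparisons, and with 60% left out 36 in ATL1222 against WT vehicle. There, cyclic loess gave 35 and a fit of the 4 arrays compared gave 44. Leaving out each array in turn gave 3 to 7, 5 to 39 and 42 to 133. The 7 pathway calls in ATL1222 against KO were all lost without the trend, and averaging probe sets kept 3 of them. The Id2 call against WT vehicle was lost without the trend (adjusted p = 0.682), with averaged probe sets (0.236), no filter (0.0880) and quantile normalization (0.0588). The causes were not tested.

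The following differences, none called, changed sign under an alternative. Leaving out arrays in turn, KO against WT vehicle ran from -0.075 to 0.18 for Tgfbr1, -0.058 to 0.23 for Tgfbr2, -0.23 to 0.047 for Smad2, -0.030 to 0.073 for Smad4, -0.077 to 0.10 for Skil and -0.26 to 0.032 for Tgif1. Further probe sets ran from -0.16 to 0.021 (Smad4), -0.092 to 0.50 (Smad7) and -0.19 to 0.071 (Ski). Partners ran from -0.019 to 0.41 (Tgfb1), -0.12 to 0.042 (Rnf111), -0.33 to 0.54 (Pmepa1), -0.17 to 0.37 (Itgae) and -0.68 to 0.11 (Junb). In ATL1222 against WT vehicle the ranges were -0.067 to 0.20 for Tgfbr1, -0.078 to 0.33 for Tgfbr2 and -0.13 to 0.32 for Smad2, and for further probe sets -0.58 to 0.018 (Smad7), -0.23 to 0.034 (Ski) and -0.072 to 0.41 (Skil). Partners ran from -0.019 to 0.13 (Rnf111), -0.25 to 0.61 (Pmepa1), -0.44 to 0.10 (Itgae), -0.036 to 0.027 (Gadd45b) and -0.16 to 0.017 (Tsc22d1). In ATL1222 against KO they were -0.12 to 0.15 for Tgfbr1, -0.17 to 0.24 for Tgfbr2, -0.036 to 0.41 for Smad2, -0.059 to 0.026 for Smad3 and -0.14 to 0.019 for Smad7, and for further probe sets -0.12 to 0.058 (Smad4) and -0.15 to 0.080 (Ski). Partners ran from -0.067 to 0.36 (Tgfb1), -0.10 to 0.16 (Furin), -0.10 to 0.11 (Smurf2) and -0.055 to 0.20 (Pmepa1).

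Averaging the probe sets of a gene, which brings in the dim ones, gave for KO against WT vehicle -0.46 for Tgfbr1, 0.31 for Smad2, -0.036 for Smad4, -0.026 for Pmepa1 and -0.16 for Itgae. For ATL1222 against WT vehicle it gave -0.38 for Tgfbr1, -0.29 for Tgfbr2, 0.0047 for Smad4, -0.045 for Smad7, -0.0095 for Smurf2, 0.0043 for Gadd45b and 0.064 for Tsc22d1. For ATL1222 against KO it gave -0.34 for Tgfbr2, -0.13 for Smad2, 0.13 for Smad3, 0.041 for Smad4, -0.016 for Tgfb1 and -0.011 for Smurf2. In that comparison cyclic loess gave -0.024 for Tgfbr1 and -0.0048 for Smurf2, and quantile normalization -0.048 and -0.020.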
